A study of Mus musculus with 16 samples.

Results

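This report describes 8 genes that place lymphocytes in lymphoid tissue and gut, on arrays of mouse regulatory T cells (Treg): Ccr7, S1pr1, S1pr4, Klf2, Ccr9, Gpr15, Cxcr4 and Gpr183. A member was taken where a probe set was annotated to that symbol alone, with the brightest probe set over the 16 arrays standing for the gene. Each member had 1 such probe set, so 8 of the 19938 genes with a single-symbol probe set are described. The probe sets are 10390763 (Ccr7), 10501586 (S1pr1), 10371217 (S1pr4), 10572800 (Klf2), 10590620 (Ccr9), 10440131 (Gpr15), 10357472 (Cxcr4) and 10422496 (Gpr183).

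The study sorted Treg of wild type C57BL/6 female mice, aged 8 to 12 weeks, from a pool of mesenteric, para-aortic, inguinal, brachial, axillary and cervical lymph nodes. The sort collected 4 surface phenotypes, CD103neg ICOSneg, CD103pos ICOSneg, CD103neg ICOSpos and CD103pos ICOSpos, where CD103 is the integrin chain encoded by Itgae and ICOS is a costimulatory receptor. Each of the 4 subsets was profiled fresh from the sort and after 3 days in a suppression culture, with 2 biological replicates, giving 8 groups. In that culture, 200000 Treg of a subset were kept with 1000000 Ly5.1 congenic naive CD4 cells, 2000000 irradiated Rag2-/- splenocytes and soluble anti-CD3 antibody at 0.5 ug/ml. Activated Treg were then recovered by a gate on Ly5.1neg CD4pos CD25pos cells, which uses neither CD103, ICOS nor Foxp3, so an activated group is named for the phenotype before culture. Values are log2 intensities, so a difference of 1 is a 2-fold difference.

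Lymphocytes enter lymph nodes along CCR7 ligands and leave them towards sphingosine-1-phosphate (S1P), which is high in blood and lymph and is sensed by S1P receptors. Resting T cells keep S1pr1 on through the transcription factor KLF2, which is itself held up by FOXO1 and lost after antigen receptor signalling. CCR9 and GPR15 direct T cells to small intestine and colon, CXCR4 binds CXCL12 made by stromal cells, and GPR183 follows oxysterols to the borders of lymphoid follicles. Effector Treg, which carry ICOS or CD103, are known for a shift from lymphoid recirculation towards tissue.

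The promoters of 6 members were held in the RefSeq table used here, build GRCm38.p6. Ccr7 and S1pr1 were not among them. Klf2, S1pr4 and Ccr9 are shown because they passed as lower after activation with any 1 array left out, which Cxcr4 did not. Each line gives the 250 bases before the annotated start, 5' to 3' on the gene's strand, with motif matches in capitals. The Klf2 promoter lies at chr8:72318812-72319061 on the plus strand. The S1pr4 promoter lies at chr10:81500138-81500387 on the minus strand. The Ccr9 promoter lies at chr9:123766961-123767210 on the plus strand.
Klf2: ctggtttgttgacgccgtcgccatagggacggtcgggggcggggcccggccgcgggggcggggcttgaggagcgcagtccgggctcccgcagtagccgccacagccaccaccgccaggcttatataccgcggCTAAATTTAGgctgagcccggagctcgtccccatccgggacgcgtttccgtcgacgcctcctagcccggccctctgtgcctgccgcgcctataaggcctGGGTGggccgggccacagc
S1pr4: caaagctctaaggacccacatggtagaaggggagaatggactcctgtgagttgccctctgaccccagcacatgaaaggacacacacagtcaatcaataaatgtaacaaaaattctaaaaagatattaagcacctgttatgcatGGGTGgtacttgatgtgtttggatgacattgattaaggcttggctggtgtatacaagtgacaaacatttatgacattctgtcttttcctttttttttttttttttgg
Ccr9: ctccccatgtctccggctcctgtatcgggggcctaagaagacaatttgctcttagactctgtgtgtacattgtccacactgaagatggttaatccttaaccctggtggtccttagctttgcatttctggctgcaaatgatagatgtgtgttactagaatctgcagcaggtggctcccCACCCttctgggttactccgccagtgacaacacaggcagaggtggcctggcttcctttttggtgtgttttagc
The motifs were searched on both strands: CACCC, the core of the KLF box, GTAAACA for FOXO factors and ACCACA for RUNX factors. For MEF2 factors CTA and TAG were searched with any 4 bases between them. MEF2 matches and their share are of that loose pattern. Klf2 held 1 CACCC match, read as GGGTG on the gene's strand, and 1 MEF2 match, CTAAATTTAG, at positions -118 to -109 from the start. S1pr4 and Ccr9 held 1 CACCC match each, as did Cxcr4 and Gpr15, and Gpr183 held none. Gpr15 also held 2 adjoining RUNX matches. No member's window held the FOXO letters. Over 32536 distinct promoters of the same length, 52.1% held CACCC, 3.22% the MEF2 letters, 3.17% the FOXO letters and 14.0% the RUNX letters, so a CACCC match is common.

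Deposited values ran from 3.02 to 14.2, with array medians of 6.26 to 6.48. Activated CD103neg ICOSpos replicate 2 stood apart from the other arrays. Foxp3, the defining transcription factor of Treg, read 8.53 there and 12.64 on its partner, and from 11.69 upward on the 7 other activated arrays. Over 8 Treg marker genes, the median deviation from each gene's mean was -2.08 on that array and 0.10 to 0.40 on the other activated arrays. It also separated 685 genes by more than 2-fold from its partner, against 24 to 413 in the other 7 groups. Results are therefore given with and without it, and without it the activated CD103neg ICOSpos group is 1 array assumed to vary like the others. The sort genes followed the labels in the fresh arrays: Icos read 10.40 to 11.47 in ICOSneg and 12.61 to 13.31 in ICOSpos arrays, and Itgae 7.25 to 9.19 in CD103neg and 11.77 to 12.37 in CD103pos arrays. Of 5 measured B cell genes, Cd79a, Ms4a1 and Pax5 lay below the array median and Cd79b above it on every array, while Blk read 8.66 and 8.43 on the fresh CD103pos ICOSpos arrays against 5.92 to 6.87 on the other fresh arrays. That list's median deviation was 1.18 on fresh CD103pos ICOSneg replicate 1, 0.95 and 0.65 on fresh CD103pos ICOSpos, and -0.52 to 0.28 on the other arrays.

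**Figure D1:**
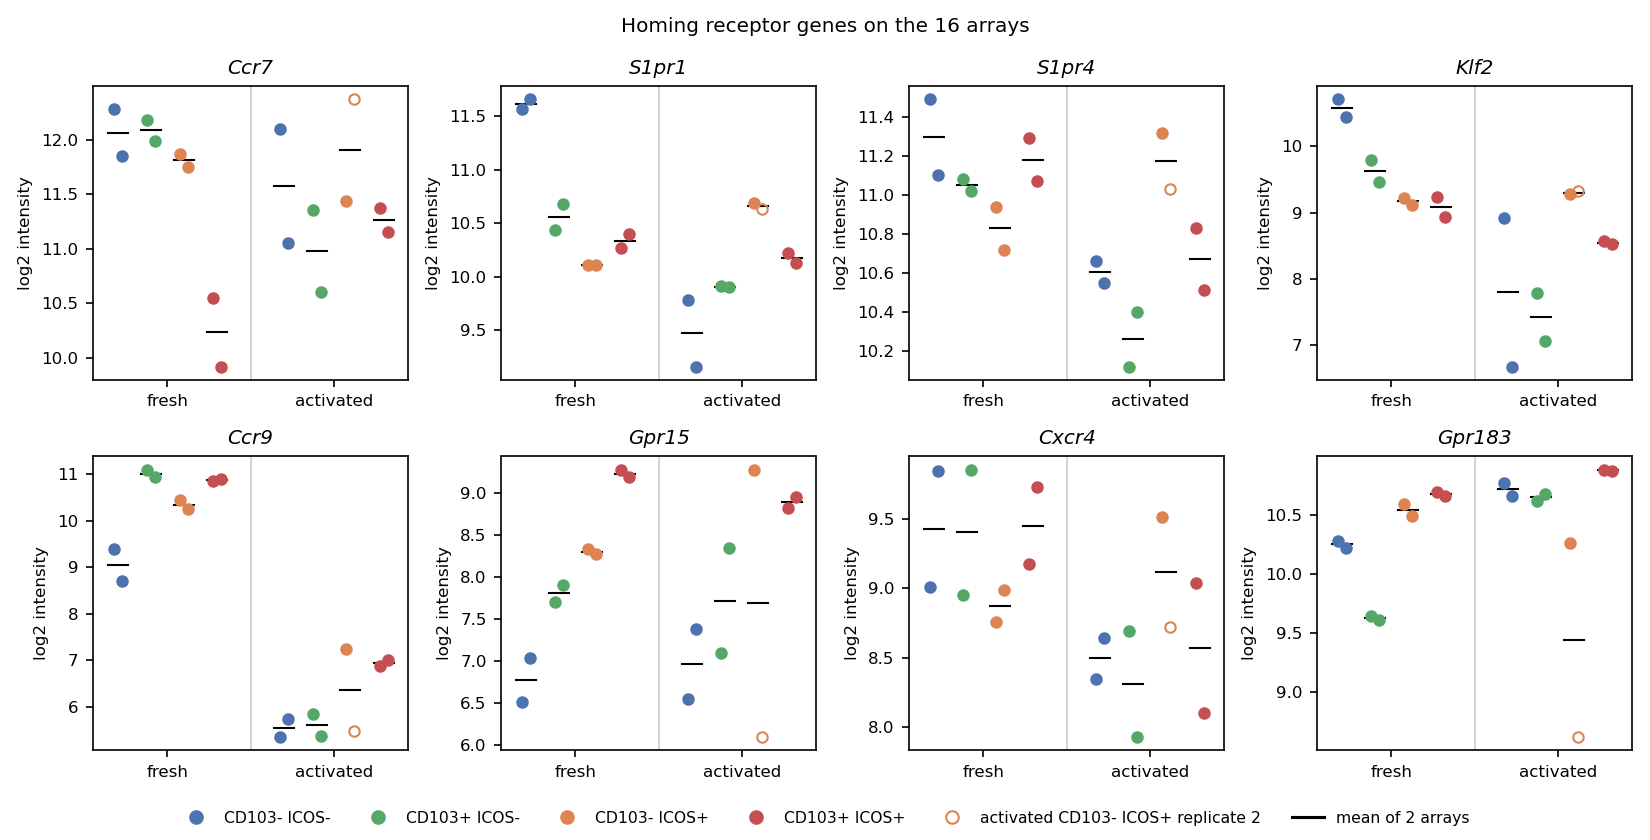
Log2 intensity of each of the 8 genes on the 16 arrays, by state (horizontal axis) and subset (colour, where + and - stand for pos and neg). Points are arrays, black bars are means of 2 arrays, and the open circle is activated CD103neg ICOSpos replicate 2. Each panel has its own vertical scale. Ccr9 shows no overlap between fresh arrays (8.71 to 11.09) and activated arrays (5.35 to 7.25).

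Klf2 and S1pr1 were highest in the fresh Treg without CD103 or ICOS, and lowest in those same cells and the CD103pos ICOSneg cells after culture. Klf2, the factor that sustains the recirculation programme, read 10.71 and 10.45 in fresh CD103neg ICOSneg Treg, 9.80 and 9.46 in CD103pos ICOSneg, 9.22 and 9.12 in CD103neg ICOSpos, and 9.23 and 8.93 in CD103pos ICOSpos. Both ICOSneg subsets lay above both ICOSpos subsets, with no overlap. After activation it read 8.92 and 6.68, then 7.79 and 7.07, in the ICOSneg subsets in the same order. In the ICOSpos subsets it read 9.28 and 9.33, then 8.57 and 8.53. Here the ICOSpos arrays were the high ones, although CD103neg ICOSneg replicate 1 fell among them, and the replicates of that group were 2.24 apart.

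S1pr1 encodes the receptor that drives exit from lymph nodes. It read 11.57 and 11.66 in fresh CD103neg ICOSneg Treg, 10.44 and 10.68 in CD103pos ICOSneg, 10.11 and 10.11 in CD103neg ICOSpos, and 10.27 and 10.40 in CD103pos ICOSpos. The first of these groups was clear of all others, and the ICOSneg arrays did not overlap the ICOSpos arrays. After activation it read 9.78 and 9.16, 9.91 and 9.90, 10.69 and 10.63, and 10.22 and 10.13 in the same order of subsets. The order of the subsets was thus turned, again with no overlap between ICOSneg and ICOSpos arrays. On the array that stood apart, both genes lay within 0.06 of their partner values.

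S1pr4, a second S1P receptor of lymphocytes, moved over a narrower range. Fresh arrays read 11.49 and 11.10 in CD103neg ICOSneg, 11.08 and 11.02 in CD103pos ICOSneg, 10.94 and 10.72 in CD103neg ICOSpos, and 11.29 and 11.07 in CD103pos ICOSpos. Activated arrays read 10.66 and 10.55, 10.12 and 10.40, 11.32 and 11.03, and 10.83 and 10.51. Among fresh groups CD103neg ICOSpos lay below the others, and CD103pos ICOSpos overlapped both ICOSneg groups. Among activated groups CD103neg ICOSpos was the high one and CD103pos ICOSneg the low one, with no overlap with the rest.

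Ccr7, the receptor for lymph node entry, was low in a single fresh group. It read 12.28 and 11.85 in CD103neg ICOSneg, 12.18 and 11.99 in CD103pos ICOSneg and 11.87 and 11.75 in CD103neg ICOSpos, but 10.55 and 9.92 in CD103pos ICOSpos. Activated arrays read 12.10 and 11.05, 11.36 and 10.60, 11.44 and 12.37, and 11.37 and 11.15, where 12.37 is the array that stood apart. Activated groups overlapped their neighbours in the order of means, while CD103neg ICOSpos lay above both CD103pos groups.

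Ccr9, the small intestine homing receptor, was bright on every fresh array and dim on every activated one. It read 9.39 and 8.71 in fresh CD103neg ICOSneg, 11.09 and 10.93 in CD103pos ICOSneg, 10.44 and 10.25 in CD103neg ICOSpos, and 10.84 and 10.89 in CD103pos ICOSpos. After activation it read 5.35 and 5.74, then 5.85 and 5.37, in the ICOSneg subsets, all below the array medians. The ICOSpos subsets read 7.25 in CD103neg ICOSpos, 6.87 and 7.0 in CD103pos ICOSpos, and 5.47 on the array that stood apart.

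Gpr15, which directs T cells to the colon, was graded across the fresh subsets: 6.51 and 7.03 in CD103neg ICOSneg, 7.70 and 7.91 in CD103pos ICOSneg, 8.33 and 8.27 in CD103neg ICOSpos, and 9.28 and 9.19 in CD103pos ICOSpos. No fresh groups overlapped. After activation it read 6.55 and 7.38, 7.09 and 8.35, 9.28 and 6.09, and 8.83 and 8.96. The reading of 6.09 is the array that stood apart, and its removal leaves the activated ICOSpos arrays above the ICOSneg arrays.

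Cxcr4, the CXCL12 receptor, read 9.01 and 9.84, 8.95 and 9.85, 8.76 and 8.99, and 9.17 and 9.73 in the fresh groups, in the order used above. Its activated values were 8.35 and 8.64, 8.69 and 7.93, 9.51 and 8.72, and 9.04 and 8.10. Replicates were up to 0.94 apart, and in each state groups overlapped their neighbours in the order of means. Fresh CD103neg ICOSpos lay below CD103neg ICOSneg and CD103pos ICOSpos, and activated CD103neg ICOSpos above both ICOSneg groups. Gpr183, the oxysterol receptor, read 10.28 and 10.22, 9.64 and 9.61, 10.59 and 10.49, and 10.69 and 10.66 fresh, with tight replicates and no overlap between subsets. Activated arrays read 10.77 and 10.66, 10.62 and 10.68, 10.26 and 8.62, and 10.88 and 10.87, where 8.62 is the array that stood apart.

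Neighbours in these orders were set against each other in the limma fit, and with all arrays no neighbouring pair of subsets in either state passed an adjusted p of 0.05 for any member. The closest was S1pr1 between fresh CD103neg ICOSneg and CD103pos ICOSneg, at a difference of 1.06 (SE 0.17, adjusted p = 0.0578). That pair passed without the array that stood apart (adjusted p = 0.0342). That comparison had 0.0853% of all genes past the threshold with all arrays and 0.371% without that one. Another 4 pairs passed without it, each higher in the first-named subset: Ccr9 in fresh CD103neg ICOSpos over CD103neg ICOSneg (adjusted p = 0.00878, 4.66% of all genes), Gpr183 in fresh CD103neg ICOSneg over CD103pos ICOSneg (0.0169), Ccr9 in activated CD103neg ICOSpos over CD103pos ICOSneg (0.0157, 2.82% of all genes) and Gpr15 in activated CD103neg ICOSpos over CD103neg ICOSneg (0.0423, 1.22% of all genes). The activated pairs among these rest on 1 CD103neg ICOSpos array, and without the array that stood apart their subsets were not neighbours. Gpr15 then stood at 9.28 in CD103neg ICOSpos, 8.89 in CD103pos ICOSpos, 7.72 in CD103pos ICOSneg and 6.97 in CD103neg ICOSneg. Ccr9 stood at 7.25, 6.94, 5.61 and 5.55 in the same order.

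Averaged over CD103, fresh ICOSpos Treg had less message for 2 recirculation receptors than fresh ICOSneg Treg. S1pr1 was 1.82-fold lower, at a mean of 10.22 against 11.09 (log2 difference -0.87, SE 0.12, adjusted p = 0.00118), and Ccr7 was 2.08-fold lower, at 11.02 against 12.08 (-1.06, SE 0.28, adjusted p = 0.0462). The low Ccr7 readings were those of CD103pos ICOSpos: CD103neg ICOSpos differed from CD103neg ICOSneg by -0.26 (adjusted p = 0.822) and from CD103pos ICOSneg by -0.28 (adjusted p = 0.869). For S1pr1, CD103neg ICOSpos differed from CD103neg ICOSneg by -1.51 (adjusted p = 4.23e-04). In CD103pos cells, S1pr1 in ICOSneg was above ICOSpos by only 0.22 (adjusted p = 0.802). In such bulk samples, fewer cells with a transcript and less of it in each cell cannot be told apart. These were 2 of the 8 members, where 6.53% of all genes passed in either direction. The members' median difference was -0.21, against -0.05 over all genes. S1pr1 passed with any 1 of the 16 arrays left out. Ccr7 lost its call in 10 of 16 such fits, on leaving out any fresh array or either activated CD103pos ICOSpos array, with adjusted p up to 0.168. The remaining members that pointed down were Klf2 (-0.98, adjusted p = 0.173), Cxcr4 (-0.25, 0.729) and S1pr4 (-0.17, 0.513). Klf2 passed in a limma fit of the 8 fresh arrays alone (adjusted p = 0.00266), whose spread leaves out the activated replicates.

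With the array that stood apart left out, Gpr15 (1.48, SE 0.26, adjusted p = 0.00527) and Gpr183 (0.67, SE 0.06, adjusted p = 8.64e-05) also passed as higher in fresh ICOSpos Treg, and 7.81% of all genes passed. With all arrays the same differences had adjusted p of 0.161 and 0.175. These fresh differences do not contain that array: leaving it out changed the spread, which the fit shares over all groups, and not the difference.

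Between fresh CD103pos and CD103neg Treg, none of the 8 members passed in the limma fit, where 0.206% of all genes did. At an unadjusted p below 0.05, 3 members and 1494 genes passed. Ccr9 had the largest difference, CD103pos minus CD103neg (1.24, 95% interval 0.55 to 1.92, adjusted p = 0.218), and its CD103pos arrays (10.84 to 11.09) did not overlap the CD103neg arrays (8.71 to 10.44). It passed without the array that stood apart (adjusted p = 0.0081), where 0.792% of all genes did. No member passed the test that the effect of CD103 depends on ICOS (0.0451% of all genes). S1pr1 came nearest (1.28, SE 0.23, adjusted p = 0.0997): its CD103 difference stood at -1.06 with ICOS absent and 0.22 with ICOS present.

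Fresh CD103pos ICOSpos Treg, set against CD103neg ICOSneg, were lower in both a node entry and a node exit receptor and higher in the small intestine receptor. Ccr7 was 3.57-fold lower (-1.84, SE 0.39, adjusted p = 0.0247), S1pr1 was 2.43-fold lower (-1.28, SE 0.17, adjusted p = 0.00152), and Ccr9 was 3.52-fold higher (1.82, SE 0.44, adjusted p = 0.0445). These were 3 of 8 members, where 3.97% of all genes passed. S1pr1 passed with any 1 array left out. Ccr7 lost its call without any 1 of the 4 arrays compared, at differences of -1.52 to -2.15 and adjusted p of 0.0532 to 0.21. Ccr9 kept its call only without either activated CD103neg ICOSpos array and lost it in the other 14 fits, with adjusted p up to 0.308. The fresh CD103pos ICOSpos arrays are also those with the high Blk readings, and the part of that in these differences was not tested.

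Ccr7 in fresh CD103pos ICOSpos Treg was also below CD103pos ICOSneg (-1.85, SE 0.39, adjusted p = 0.0351), where 2.18% of all genes passed. Against CD103neg ICOSpos it was -1.58 (adjusted p = 0.157). Gpr15 stood at 9.23 in CD103pos ICOSpos and 6.77 in CD103neg ICOSneg (2.46, SE 0.77, adjusted p = 0.13). Gpr15 passed without the array that stood apart (adjusted p = 0.00255), as did Gpr183 (0.43, adjusted p = 0.0168), where 5.45% of all genes passed.

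After 3 days of suppression culture, 5 of the 8 members were lower, averaged over the 4 subsets, where 16.8% of all genes were. Ccr9 fell by 4.20 on the log2 scale (SE 0.22, adjusted p = 1.3e-07). Of its 8 activated values 5 lay below the array median, where RMA values hold little range, so no fold is given. Klf2 fell by 1.34 (SE 0.26, adjusted p = 0.00203), S1pr1 by 0.60 (SE 0.08, adjusted p = 1.87e-04), S1pr4 by 0.41 (SE 0.09, adjusted p = 0.00332) and Cxcr4 by 0.66 (SE 0.22, adjusted p = 0.0381). In either direction 31.2% of all genes passed. The members' median was -0.51 and that of all genes -0.0032. The first 4 calls held with any 1 array left out. Cxcr4 kept its call in 6 of 16 such fits, those without replicate 1 of fresh CD103neg ICOSneg, CD103pos ICOSneg or CD103pos ICOSpos, or of activated CD103pos ICOSneg, CD103pos ICOSpos or CD103neg ICOSpos. In the other 10 its adjusted p reached 0.0915. Cxcr4 differed by -0.08 between replicate 1 arrays and by -1.25 between replicate 2 arrays.

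Markers of other cell types moved in the same comparison. Of 5 measured B cell genes 4 were lower after activation, with a list median of -0.75. Of 8 myeloid and dendritic cell genes 3 were lower (list median -0.15), as were 2 of 6 CD8 T and NK cell genes (-0.41), while 2 of 6 lymph node stroma genes were higher (0.06). The B cell list's median level was 5.78 to 6.37 on fresh and 5.58 to 5.99 on activated arrays, and the part of these markers in the members' differences was not tested.

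Ccr7 (-0.12, 95% interval -0.55 to 0.31), Gpr15 (-0.21, -1.06 to 0.64) and Gpr183 (0.15, -0.25 to 0.54) did not pass. Without the array that stood apart Gpr183 passed as higher (0.35, SE 0.05, adjusted p = 2.05e-04), Cxcr4 did not pass (-0.57, adjusted p = 0.082), and 30.7% of all genes passed.

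**Figure D2:**
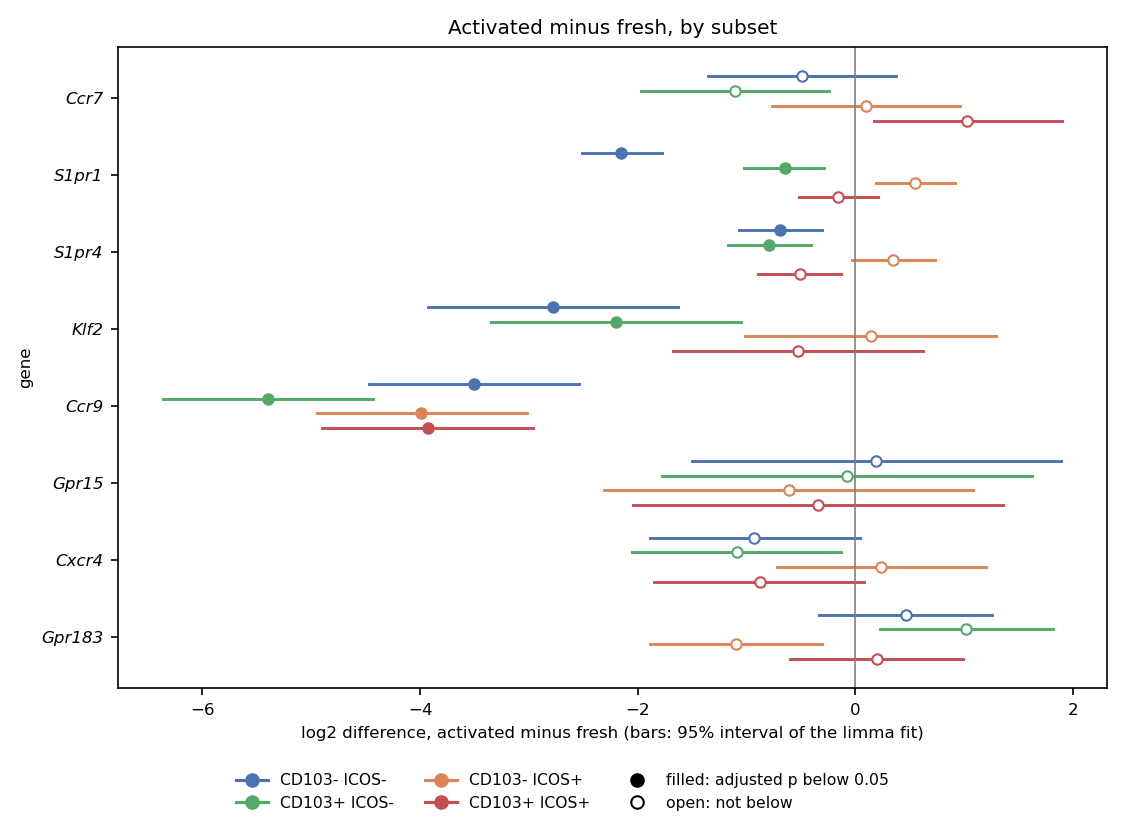
Log2 difference between activated and fresh Treg (horizontal axis) for each gene within each subset (colour, where + and - stand for pos and neg). Points are differences of 2 against 2 arrays, bars are 95% intervals of the limma fit over 16 arrays, and filled points passed an adjusted p of 0.05. Ccr9 is far to the left in all 4 subsets, while S1pr1, S1pr4 and Klf2 have filled points in the ICOSneg subsets alone.

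Within subsets, Ccr9 was lower after activation in all 4, at log2 differences of -3.50 in CD103neg ICOSneg, -5.40 in CD103pos ICOSneg, -3.99 in CD103neg ICOSpos and -3.93 in CD103pos ICOSpos, with adjusted p from 1.03e-05 to 0.00155. The activated values behind the ICOSneg differences all lay below the array medians, so their sizes are not read as folds. All 4 calls held with any 1 array left out, and without the array that stood apart the CD103neg ICOSpos difference was -3.10. In CD103neg ICOSneg Treg 4 members passed, all lower, where 16.2% of all genes passed. There S1pr1 fell by 2.15, or 4.43-fold (SE 0.17, adjusted p = 7.53e-06), Klf2 by 2.78, or 6.87-fold (SE 0.52, adjusted p = 0.00383), and S1pr4 by 0.69 (SE 0.17, adjusted p = 0.0186). Klf2 stood at -3.90 without activated replicate 1 and at -1.66 without activated replicate 2, and passed in both fits. S1pr4 lost this call without fresh replicate 1 (-0.49, adjusted p = 0.156), activated replicate 1 (-0.74, 0.0534) or activated replicate 2 (-0.63, 0.107).

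The same 4 genes passed in CD103pos ICOSneg Treg, where 20.2% of all genes did. Klf2 fell by 2.20 (SE 0.52, adjusted p = 0.0116), S1pr4 by 0.79 (SE 0.17, adjusted p = 0.00713) and S1pr1 by 0.65 (SE 0.17, adjusted p = 0.0159). Single arrays ended some of these calls. Without activated replicate 1, S1pr4 was at -0.65 (adjusted p = 0.0655) and S1pr1 at -0.66 (0.0683). Without activated replicate 2, S1pr1 was at -0.65 (0.0731) and Klf2 at -1.84 (0.0943). Without the fresh arrays, Klf2 stood at -2.03 (0.0742, replicate 1) and S1pr1 at -0.53 (0.111, replicate 2). Without the array that stood apart Ccr7 (-1.11, adjusted p = 0.0469) and Gpr183 (1.02, adjusted p = 2.35e-05) passed too, where 21.1% of all genes did.

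In the ICOSpos subsets Ccr9 was the only member that passed, where 2.09% of all genes passed in CD103neg ICOSpos and 14.1% in CD103pos ICOSpos. In CD103neg ICOSpos, S1pr1 stood at 0.55 (95% interval 0.19 to 0.92, adjusted p = 0.135) and Klf2 at 0.14 (-1.01 to 1.29). In CD103pos ICOSpos, S1pr1 stood at -0.16 (-0.52 to 0.21), Klf2 at -0.53 (-1.68 to 0.62), S1pr4 at -0.51 (adjusted p = 0.0769) and Ccr7 at 1.03 (adjusted p = 0.112).

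Averaged over CD103, activated ICOSpos Treg had more S1pr1 and S1pr4 message than activated ICOSneg Treg. S1pr1 was 1.66-fold higher, at 10.42 against 9.69 (0.73, SE 0.12, adjusted p = 0.00684), and S1pr4 was 1.4-fold higher, at 10.92 against 10.43 (0.49, SE 0.12, adjusted p = 0.037). These were 2 of the 8 members, where 6.94% of all genes passed, and the members' median was 0.61 against -0.00056 over all genes. None of 9 other S1P axis genes passed, the receptor genes S1pr2, S1pr3 and S1pr5 among them. For S1pr4, CD103pos ICOSpos (10.67) overlapped CD103neg ICOSneg (10.61, adjusted p = 0.889), while CD103neg ICOSpos stood at 11.18 and CD103pos ICOSneg at 10.26. For S1pr1, CD103pos ICOSpos was above CD103pos ICOSneg by 0.27 (adjusted p = 0.589). S1pr1 passed with any 1 array left out, but not in a fit of the 8 activated arrays alone (adjusted p = 0.0505). S1pr4 missed the threshold in that fit too (adjusted p = 0.0853). With 1 array left out S1pr4 kept its call in 6 of 16 fits, those without 1 of the fresh CD103neg ICOSneg or CD103pos ICOSpos arrays, or without replicate 2 of activated CD103pos ICOSneg or CD103neg ICOSpos. In the other 10 its adjusted p reached 0.124.

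Klf2 stood at 8.93 in activated ICOSpos and 7.61 in activated ICOSneg Treg (1.31, SE 0.37, adjusted p = 0.0585), and Ccr9 at 6.65 and 5.58 (1.07, SE 0.31, adjusted p = 0.0654). Without the array that stood apart Ccr9 (1.51, SE 0.18, adjusted p = 0.00164) and Gpr15 (1.74, SE 0.29, adjusted p = 0.00811) passed beside S1pr1 and S1pr4, where 6.65% of all genes did, and Klf2 did not (1.30, adjusted p = 0.109). With all arrays Gpr15 was at 0.94 (adjusted p = 0.403), with replicate differences of 2.23 and -0.34, and without activated CD103neg ICOSpos replicate 1 it was at 0.15. For CD103 among activated Treg no member passed, where 0.717% of all genes did (0.361% without the array that stood apart). At an unadjusted p below 0.05, 3 members and 2414 genes passed.

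The ICOS difference itself changed with activation for 3 members, where 6.72% of all genes passed. S1pr1 went from 0.87 lower in fresh ICOSpos Treg to 0.73 higher in activated ones, a change of 1.60 (SE 0.17, adjusted p = 2.35e-04), with replicate values of 1.43 and 1.77. That change lay mostly in CD103neg cells, whose ICOSpos and ICOSneg means were 10.11 and 11.62 fresh, 10.66 and 9.47 activated. In CD103pos cells these S1pr1 means were 10.33 and 10.56, then 10.18 and 9.90. Neither CD103pos pair passed in the limma fit (adjusted p = 0.802 fresh and 0.589 activated). Klf2 changed by 2.29 (SE 0.52, adjusted p = 0.0251), with replicate values of 1.60 and 2.99, and S1pr4 by 0.66 (SE 0.17, adjusted p = 0.0444), with 0.86 and 0.46. All 3 passed without the array that stood apart, with Gpr183 in the other direction (-0.79, adjusted p = 9.17e-04, against -1.20 and 0.0782 with all arrays), where 5.92% of all genes passed. S1pr1 passed with any 1 array left out. Klf2 lost its call in 7 of 16 such fits, with changes of 2.11 to 2.32 and adjusted p up to 0.0637: those without a fresh CD103neg ICOSpos array, fresh CD103neg ICOSneg replicate 1, fresh CD103pos ICOSneg replicate 1, fresh CD103pos ICOSpos replicate 2, or replicate 2 of activated CD103pos ICOSneg or CD103pos ICOSpos. S1pr4 kept its call in 4 of 16, those without replicate 2 of fresh CD103neg ICOSneg or of activated CD103pos ICOSneg, CD103pos ICOSpos or CD103neg ICOSpos, and its adjusted p elsewhere reached 0.116.

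**Figure D3:**
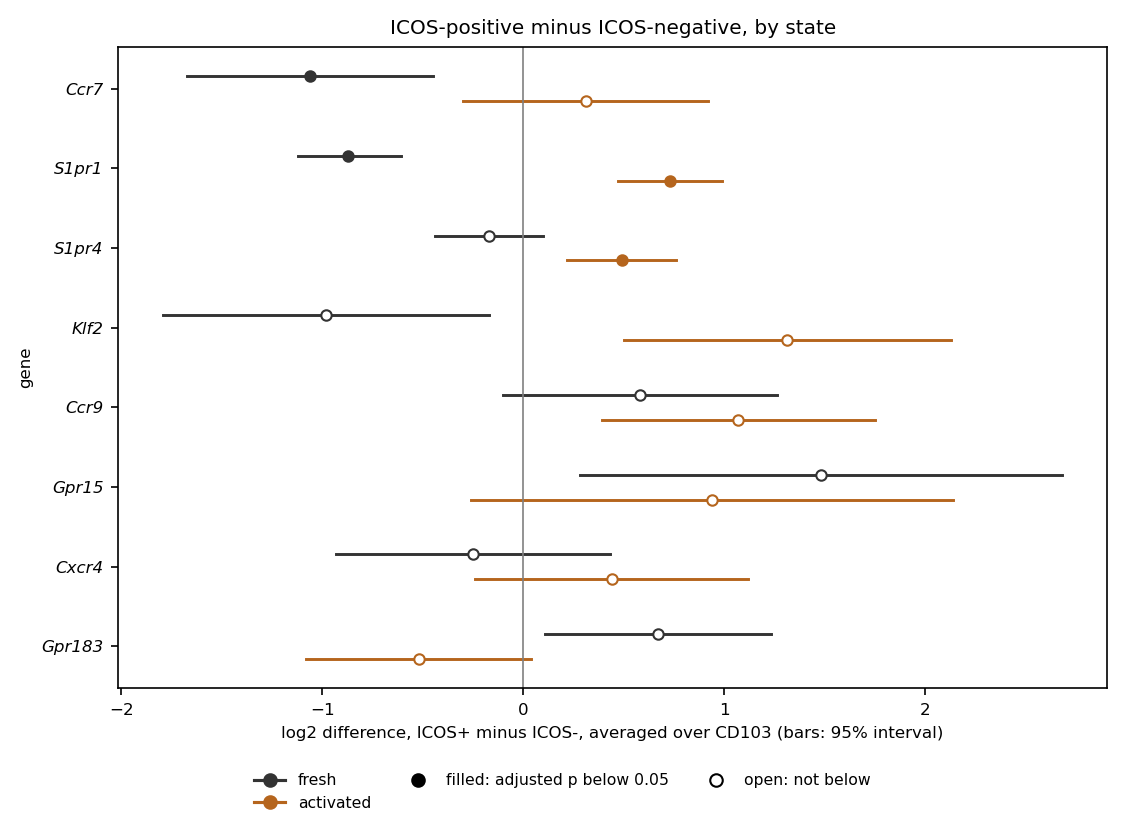
Log2 difference between ICOSpos and ICOSneg Treg, averaged over CD103 (horizontal axis), for each gene in fresh (dark) and activated (orange) cells. Points are differences of 4 against 4 arrays, bars are 95% intervals of the limma fit, and filled points passed an adjusted p of 0.05. S1pr1 is at -0.87 fresh and 0.73 activated, and Klf2 is at -0.98 and 1.31.

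Ccr7 had a change of 1.36 (SE 0.39, adjusted p = 0.0655), and Ccr9, Gpr15 and Cxcr4 did not pass (0.49, -0.53 and 0.69). The CD103 difference changed with activation for none of the 8 members, where 0.296% of all genes passed. At an unadjusted p below 0.05, 3 members and 2111 genes passed that test.

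Klf2 and S1pr1 varied together over the arrays. Pearson's r between them was 0.86 over the 15 arrays without the one that stood apart, 0.92 over the 8 fresh arrays and 0.78 over the 7 activated arrays. These points share the 8 groups and their normalization, so r describes the pattern only. S1pr4 followed Klf2 at 0.79 over 15 arrays, 0.61 fresh and 0.64 activated. Gpr15 ran against Klf2 among fresh arrays (-0.92) and not among activated arrays (0.31), and Ccr9 did likewise (-0.75 and 0.60).

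**Figure D4:**
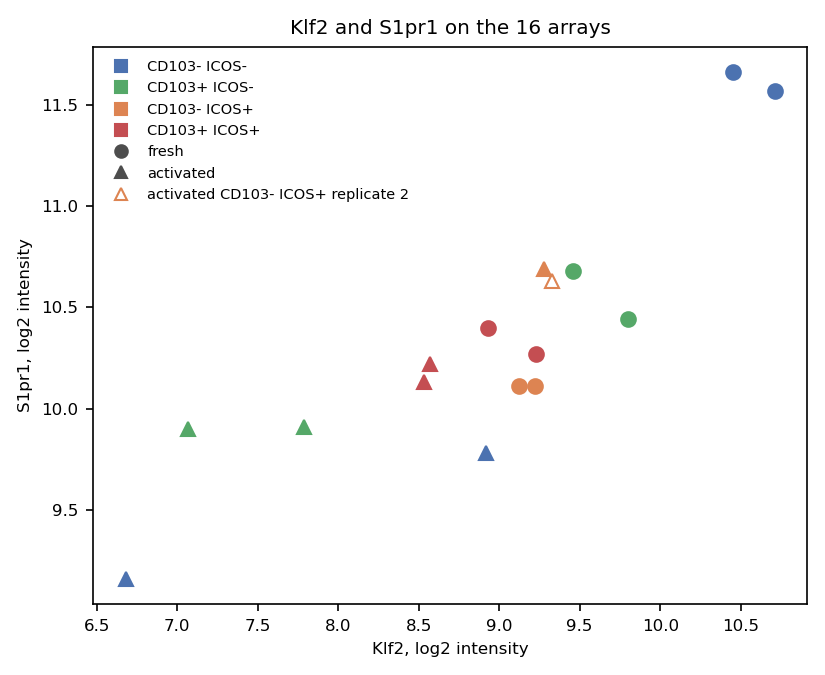
S1pr1 (vertical axis) against Klf2 (horizontal axis), both as log2 intensity, on the 16 arrays, with circles for fresh, triangles for activated, colour for subset (+ and - stand for pos and neg), and the open triangle for activated CD103neg ICOSpos replicate 2. Fresh CD103neg ICOSneg arrays lie at the upper right (Klf2 10.71 and 10.45), and activated CD103neg ICOSneg replicate 2 at the lower left (Klf2 6.68, S1pr1 9.16).

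Among 18234 other named genes, the 3 with the pattern most like each member over those 15 arrays were found by Pearson's r. Klf2 was followed by Dnah8, Rasa3 and Add3 (0.94 each), S1pr1 by Oasl1 (0.93), H2-T10 (0.90) and Ms4a6c (0.89), and S1pr4 by Rnf31 (0.93), Lmbr1l (0.93) and Lfng (0.92). Ccr9 was followed by Mxd4, Ank and Fam214a (0.97 each), and Gpr15 by Pon3 (0.93), Myo1f (0.93) and the chemokine receptor gene Ccr2 (0.92). Cxcr4 went with Klhdc1 (0.93), Zfand6 and Acbd5 (0.91 each), and Gpr183 with Cfap300 and Septin11 (0.91 each) and Lgals1 (0.87). Ccr7 had the loosest match, Olfr402 (0.88), Wnt3 (0.84) and Miox (0.83), and Olfr402, Miox and Cfap300 reached at most 5.14, under every array median. Over all 16 arrays r fell to 0.73 for Cfap300, 0.61 for Septin11 and 0.45 for Lgals1, and to 0.61 for Wnt3, 0.78 for Miox and 0.81 for Ms4a6c, and was 0.88 to 0.97 for the others.

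The genes around these receptors were read from lists of 53 measured genes in all. After activation 23 of them were lower and 1 higher, averaged over subsets, where 16.8% of all genes were lower and 31.2% passed in either direction. In a list of 9 genes, 3 lower is above the 16.8% share, but the list is too short for an excess to be read from it. Of 10 measured genes of the FOXO and KLF axis 7 were lower, with a list median of -0.43. They included Klf3 (-2.97, SE 0.22), a KLF family repressor, Pik3ip1 (-1.67, SE 0.16), a brake on PI3K, Klf13 (-0.51, SE 0.12) and Foxo1 (-0.50, SE 0.09), with adjusted p from 2.22e-06 to 0.0068. Of 9 gut homing partners 6 were lower, led by Itga4 (-2.39, SE 0.12), the alpha 4 integrin chain, Ccr6 (-2.05, SE 0.38), the CCL20 receptor, the retinoic acid receptor gene Rarg (-1.68, SE 0.16) and the aryl hydrocarbon receptor gene Ahr (-1.27, SE 0.18).

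Of 9 genes of the S1P axis 3 were lower, the S1P phosphatase gene Sgpp1 (-0.56, SE 0.07), Cd69 (-0.49, SE 0.08), whose product removes S1PR1 from the surface, and the S1P lyase gene Sgpl1 (-0.31, SE 0.08). S1pr3, another S1P receptor gene, was higher (1.57, SE 0.20, adjusted p = 9.96e-05). Of 16 genes of G protein signalling and receptor desensitisation 6 were lower, among them Rgs3 (-1.01), Rgs14 (-0.84), Arrb2 (-0.51) and Dock2 (-0.43). Dpp4, which cleaves CXCL12, was lower (-0.58, SE 0.10). None of 4 oxysterol enzyme genes and none of 3 ligand genes passed in this limma fit.

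Between ICOSpos and ICOSneg Treg the same lists split by state. Shares of all genes passing were 6.53% fresh and 6.94% activated, so the activated count of 5 among 53 is near the background. In fresh ICOSpos cells 2 of 53 genes were higher, Ahr (2.0, SE 0.25) and Ccr10 (1.07, SE 0.15), and 5 were lower: Pik3ip1 (-1.03), Lef1 (-0.80), Itga4 (-0.68), Dpp4 (-0.56) and Sgpp1 (-0.39). In activated ICOSpos cells 5 were higher and none lower, Klf3 (1.45, SE 0.31), Itga4 (0.89, SE 0.17), Itgb7 (0.86, SE 0.11), Dock2 (0.60, SE 0.06) and Rgs3 (0.54, SE 0.14). Rgs3 did not pass without the array that stood apart (0.50, adjusted p = 0.108). Itga4 and Itgb7 encode the chains of the integrin that binds the gut addressin. Without any 1 fresh array the fresh count of 7 was 2 to 4, and without either activated CD103neg ICOSpos array it was 10. The activated count of 5 was 3 without activated CD103pos ICOSpos replicate 1 or CD103pos ICOSneg replicate 2, and 8 without the array that stood apart.

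The ICOS difference changed upward with activation for Klf3 (2.24), Pik3ip1 (1.66), Itga4 (1.57), Dpp4 (1.0) and Dock2 (0.47), and downward for Ahr (-1.53, adjusted p = 0.0259, or 0.0527 without the array that stood apart). That count was 6 among 53, where 6.72% of all genes passed. It rose without activated CD103neg ICOSpos replicate 1, as did the calls over all genes. In that fit the group is only the array that stood apart. In fresh CD103pos against CD103neg cells the 1 gene that passed was Itgae (3.85), which the sort selects, and it lost its call without any 1 fresh array or any 1 activated CD103pos array. In activated cells none of the 53 passed for CD103, where 143 of all genes did. The count among the 53 rose most without activated CD103neg ICOSpos replicate 1, and calls over all genes rose too. That fit leaves the group as the array that stood apart alone, which was low in Foxp3 (8.53).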

How the data were processed

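Affymetrix arrays of 16 samples, hybridised from 270 ng of total RNA each, were analysed. The authors deposited log2 intensities per probe set, and RMA and affy are named in the submitters' processing notes. Neither comes with a version, and RMA's options are not given in these sources. Of 35556 probe sets, 21789 carried 1 gene symbol in the platform annotation, 1621 several and 12146 none. The single-symbol probe sets gave 19938 genes, and 21698 of the probe sets matched RefSeq by gene identifier.

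Group means were fitted with limma 3.58.1 in R 4.3.3 on the deposited log2 values of all 16 arrays (8 residual degrees of freedom), with p-values adjusted by Benjamini-Hochberg over all genes and a threshold of 0.05. The fit took in 25 comparisons, each adjusted on its own. Differences between ICOSpos and ICOSneg were averaged over CD103, and the reverse. With 2 arrays a group, the number of arrays limits the precision. The p-values rest on the spread between biological replicates within groups, pooled per gene over all 8 groups. It is thus not the spread of the compared groups alone. By the eBayes step of limma, each gene's spread was also drawn towards a value estimated over all genes (2.9 prior degrees of freedom). The fit takes replicates as independent, though same-numbered fresh arrays deviated together. No 2 arrays held like values (smallest mean absolute difference 0.139). The procedure was tested on simulated arrays with the mean and residual spread of each of 19938 genes, independent normal noise and 200 genes raised in fresh ICOSpos cells. In the fresh ICOS difference, 93 of 100 changes of 1 and 98 of 100 changes of 2 on the log2 scale were recovered, with 14 false calls. The simulation held no outlying array and no shared deviation of same-numbered arrays, so these shares do not give the power in the real data.

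The members and gene lists were chosen with earlier results of these data known. The 8 members are always named, up to 4 passing genes per list and comparison (all where the list passes few), and the 3 genes closest to each member. Tcf7, Ccl21a, Rgs10, Adrbk1 and a few other listed genes were not analysed here. Alternatives were the replicate number as a block, each array left out, quantile normalization, dim genes left out, the mean of probe sets, arrays of 1 state, array weights and a trended prior.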

Additional observations from a re-analysis of the deposited data

Results flagged for a closer look

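For 3 members the difference between ICOSpos and ICOSneg Treg was itself different in fresh and in activated cells, by the interaction term of the limma fit. The change, activated minus fresh, was 1.60 for S1pr1 (adjusted p = 2.35e-04), 2.29 for Klf2 (adjusted p = 0.0251) and 0.66 for S1pr4 (adjusted p = 0.0444). For S1pr1 the ICOS difference passed in both states with opposite sign, at -0.87 fresh and 0.73 activated. Among CD103pos cells alone the ICOS difference of S1pr1 passed in neither state (adjusted p = 0.802 and 0.589). For Klf2 it missed the threshold in both states in that fit (-0.98 with adjusted p = 0.173, and 1.31 with adjusted p = 0.0585), and for S1pr4 it passed in activated cells alone (-0.17 and 0.49). With only fresh arrays in the fit, the fresh ICOS difference of Klf2 passed (adjusted p = 0.00266). With only activated arrays in the limma fit, the activated ICOS difference missed the threshold for S1pr1 (adjusted p = 0.0505) and S1pr4 (0.0853). Without activated CD103neg ICOSpos replicate 2 the changes were 1.61, 2.28 and 0.73, with adjusted p of 6.78e-04, 0.0452 and 0.0393. With a trended and robust prior S1pr4 had an adjusted p of 0.0532. Only for S1pr1 did the change keep its call with any 1 array left out. No group held enough arrays for a test of single outlying arrays.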

How the results depend on the processing

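All alternatives were refitted for the differences of the 8 members in the 8 main comparisons and the 4 comparisons of activation within a subset, and for the counts of members that passed, except that a fit of arrays of 1 state covers only the comparisons within a state. The other pairs of subsets were refitted only without the array that stood apart. With arrays of 1 state in the fit, 5 members passed for fresh ICOS, 2 for fresh CD103, 1 for the interaction of both, 6 for CD103pos ICOSpos against CD103neg ICOSneg, and 0 for activated ICOS. Of all 19938 genes, 1757, 268, 62, 1264 and 443 passed in these comparisons, in that order. With all arrays in the fit, 1301, 41, 9, 792 and 1383 did. The member calls gained were Klf2, Gpr15 and Gpr183, both for fresh ICOS and for fresh CD103pos ICOSpos against CD103neg ICOSneg. Ccr9 and Gpr15 were gained for fresh CD103, and S1pr1 for the interaction. With dim genes left out (11643 genes kept), 4 passed for activated ICOS and 5 for the change of the ICOS difference. Of the genes kept, 1517 and 1383 passed. The labels do not tie replicate numbers to an experiment, and deviations of same-numbered arrays correlated at -0.02 to 0.75 (median 0.23, above 0.1 in 27 of 28 pairs of groups). Between fresh groups alone these correlations were all higher, at 0.50 to 0.75. With the replicate number as a block the counts were 4 for activated ICOS and 5 for the change of the ICOS difference, with no call lost among 96 member differences and 7 gained: Klf2 (adjusted p = 0.019) and Ccr9 (0.0294) for activated ICOS, Ccr7 (0.0287) and Gpr183 (0.0408) for the change of the ICOS difference, Ccr7 (0.0379) and Gpr183 (0.0445) for activation in CD103pos ICOSneg, and S1pr4 (0.0255) for activation in CD103pos ICOSpos. The first 6 of these were also gained with dim genes left out (adjusted p of 0.0332 to 0.0475). Calls over all 19938 genes rose with the block too. They were 2734 against 1383 for activated ICOS and 2638 against 1339 for the change of the ICOS difference. For activation they were 5440 against 4036 in CD103pos ICOSneg and 4412 against 2803 in CD103pos ICOSpos. Array weights changed no call. The mean of probe sets changed none either, but each member had 1 probe set, so its values there were fixed in advance. Quantile normalization turned 2 small differences, Cxcr4 in fresh CD103pos ICOSpos against CD103neg ICOSneg (-0.0037) and Gpr15 with activation in CD103pos ICOSneg (0.0024), and brought Klf2 for activated ICOS to an adjusted p of 0.05 and Ccr7 for activation in CD103pos ICOSneg to 0.0491.

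With 1 array left out at a time, members passing ranged from 1 to 4 for fresh ICOS, 0 to 1 for fresh CD103, 0 to 1 for the fresh interaction, 1 to 5 for fresh CD103pos ICOSpos against CD103neg ICOSneg, 1 to 4 for activated ICOS, 0 to 3 for activated CD103, 4 to 6 for activation, 1 to 4 for the change of the ICOS difference and 0 to 1 for that of the CD103 difference. Differences that turned sign in such fits had no call with all arrays: S1pr4 for fresh CD103 (-0.05 to 0.15), Gpr15 for the fresh interaction (-0.36 to 0.16), S1pr4 (-0.32 to 0.08) and Cxcr4 (-0.39 to 0.45) for CD103pos ICOSpos against CD103neg ICOSneg, S1pr1 (-0.18 to 0.13) and Ccr9 (-0.12 to 0.76) for activated CD103, Ccr7 (-0.25 to 0.01), Gpr15 (-0.61 to 0.19) and Gpr183 (-0.06 to 0.35) for activation, Gpr15 for the change of the ICOS difference (-1.33 to 0.26), Ccr7 (-1.01 to 0.03) and Gpr15 (-0.22 to 0.61) for activation in CD103neg ICOSneg, Gpr15 in CD103pos ICOSneg (-0.71 to 0.55), and Ccr7 (-0.37 to 0.56), Gpr15 (-2.21 to 0.98) and Cxcr4 (-0.15 to 0.64) in CD103neg ICOSpos. Of the 53 surrounding genes, the count that passed moved by more than 1.5 times in at least 1 of these fits, except for activation (24, range 23 to 28) and the fresh interaction (0 in all 16). With the block it was 11 for fresh ICOS, 2 for fresh CD103, 8 for activated ICOS, 6 for activated CD103 and 3 for the change of the CD103 difference. Of all 19938 genes, 2275, 143, 2734, 519 and 370 passed with the block, in that order. With arrays of 1 state the count among the 53 was 13 for fresh ICOS and 2 for fresh CD103. It was 11 for CD103pos ICOSpos against CD103neg ICOSneg and 3 for activated ICOS. Of all genes, 1757, 268, 1264 and 443 passed there, in the same order. For activated CD103 the count among the 53 was 4 with dim genes left out, where 188 of 11643 genes passed. It was 1 with quantile normalization or the trended prior, which gave 0 for fresh CD103. For activated CD103, 147 and 149 of all genes passed in those 2 settings. The cause of these changes was not tested.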
